A study of Mus musculus with 6 samples.

Results

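The principal cell water and sodium genes are 10 of the 54532 genes in the count table and were chosen by symbol: Aqp2, Aqp3, Aqp4, Avpr2, Scnn1a, Scnn1b, Scnn1g, Hsd11b2, Fxyd4 and Gata3. Each was found once by its Ensembl identifier in the GENCODE M21 annotation of GRCm38. The libraries were made from mRNA of whole kidneys of male C57BL/6 mice, 3 libraries in each of the Control and KSPAPN groups, and each library pooled the RNA of 3 mice. Control mice carried KsprtTA without the adiponectin transgene, and their genotype is given as WT in the labels. KSPAPN mice carried KsprtTA and TRE-adiponectin, so that rtTA made from the Ksp-cadherin (Cdh16) promoter, which is active along the tubular epithelium, proximal tubule and collecting duct included, switches on adiponectin when doxycycline is given. All mice, Control included, ate chow with doxycycline at 600 mg/kg for 4 days, and no source used here gives their age. The question for these genes is whether adiponectin overexpression in the tubule changed them in the whole kidney.

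Principal cells are the collecting duct cells that adjust water and sodium excretion. Vasopressin acts on its receptor, encoded by Avpr2, and through cyclic AMP brings AQP2 water channels to the apical membrane, while water leaves the cell through AQP3 and AQP4 on the basolateral side. Sodium enters through the epithelial sodium channel ENaC, built from α, β and γ subunits (Scnn1a, Scnn1b and Scnn1g), which aldosterone regulates through the mineralocorticoid receptor. The enzyme encoded by Hsd11b2 inactivates glucocorticoids and so keeps that receptor for aldosterone, FXYD4 regulates the Na,K-ATPase that pumps sodium out of the cell, and GATA3 is a transcription factor of the collecting duct lineage.

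Promoter sequences are shown for Aqp2, because a single library decided its fold change, for Aqp3 as the other abundant water channel, and for Scnn1g and Scnn1b, neighbouring genes on chromosome 7 whose ratio to each other overlapped between groups. They come from RefSeq (GRCm38.p6) and run from 250 bases before to 50 bases after the annotated start site, 5′ to 3′ on the strand of the gene: chr15:99578806-99579105 (+) for Aqp2, chr4:41098134-41098433 (-) for Aqp3, chr7:121734229-121734528 (+) for Scnn1g and chr7:121864788-121865087 (+) for Scnn1b. Capitals mark matches, on either strand, to the core motif of GATA factors, searched as AGATA. They also mark a half-site of the cyclic AMP response element, searched as TGACG, a half-site of steroid receptors, searched as AGAACA, and a TATA box, searched as TATAAA.
Aqp2: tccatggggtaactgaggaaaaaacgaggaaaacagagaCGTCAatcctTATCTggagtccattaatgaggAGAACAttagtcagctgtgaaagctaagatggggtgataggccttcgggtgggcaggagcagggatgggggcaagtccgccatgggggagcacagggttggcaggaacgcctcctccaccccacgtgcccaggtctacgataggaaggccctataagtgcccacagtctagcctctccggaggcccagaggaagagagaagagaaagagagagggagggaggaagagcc
Aqp3: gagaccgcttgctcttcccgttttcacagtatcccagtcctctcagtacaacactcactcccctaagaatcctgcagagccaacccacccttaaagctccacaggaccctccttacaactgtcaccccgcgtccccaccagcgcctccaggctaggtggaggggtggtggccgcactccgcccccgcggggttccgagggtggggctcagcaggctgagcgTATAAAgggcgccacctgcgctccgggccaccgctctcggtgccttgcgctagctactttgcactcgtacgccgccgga
Scnn1g: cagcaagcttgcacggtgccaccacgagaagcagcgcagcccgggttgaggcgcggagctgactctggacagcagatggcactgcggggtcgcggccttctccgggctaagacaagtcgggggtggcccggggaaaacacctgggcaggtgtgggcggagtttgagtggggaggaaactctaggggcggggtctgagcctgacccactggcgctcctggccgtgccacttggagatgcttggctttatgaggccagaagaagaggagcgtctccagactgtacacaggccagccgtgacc
Scnn1b: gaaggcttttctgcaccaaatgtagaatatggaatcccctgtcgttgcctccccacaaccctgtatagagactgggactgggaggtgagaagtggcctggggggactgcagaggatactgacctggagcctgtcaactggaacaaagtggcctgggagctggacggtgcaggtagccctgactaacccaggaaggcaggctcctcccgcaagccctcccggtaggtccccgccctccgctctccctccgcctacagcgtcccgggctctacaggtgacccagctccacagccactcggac
The Aqp2 promoter held 3 matches that did not overlap: a cyclic AMP half-site on the opposite strand beginning at -211 from the start site, a GATA core on the opposite strand at -201, and a steroid half-site on the gene's own strand at -179. The Aqp3 promoter held the TATA box at -29, and none of these motifs was in the Scnn1g or Scnn1b window. Of the 7 members whose promoters were searched (Aqp2, Aqp3, Avpr2, Scnn1b, Scnn1g, Fxyd4 and Gata3), 2 held the GATA core, 1 the cyclic AMP half-site, 2 the steroid half-site and 2 the TATA box. In the table's 32851 promoters of this length the shares were 29.6%, 20.8%, 19.0% and 13.6% in that order. A match describes the letters and is not evidence of a bound site. Scnn1a and Hsd11b2 had no entry.

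The libraries held 17183358 to 18205023 counts in Control and 18150442 to 20871173 in KSPAPN, of which mitochondrially encoded genes took 7.69% to 9.32% and 8.41% to 12.3%. The Adipoq gene had 0 to 2 reads in each Control library and 17483 to 26811 in each KSPAPN library. Cdh16, whose promoter drives rtTA, was at 289 ± 18.2 FPKM (reads per gene scaled by gene length and library size) in Control and 246 ± 4.89 in KSPAPN (SD, n = 3). KSPAPN replicate 1 stood apart: its counts differed from those of the other KSPAPN libraries with a chi-square of 27.2 and 36.1 per gene, against 11.01 between those other libraries and 14.2 to 17.9 within Control. The fold change of each member tested is therefore also given without it. In whole kidney, fewer principal cells and less RNA per principal cell cannot be told apart.

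At an adjusted p under 0.05 in edgeR's quasi-likelihood test, 0 of the 9 members tested were called different between KSPAPN and Control. Of all 16017 genes, 2.65% were (63 higher and 361 lower). On counts simulated with the common dispersion, this test recovered 32.8% of the smallest changes set. Those were larger than any member's change, at most 1.34-fold (Aqp4), so an uncalled member may still have changed. DESeq2 also called 0 of the 9. Avpr2 had too few reads for the filter on low counts. Of the 9, 4 had a log2 fold change above 0 (Aqp2, Scnn1b, Scnn1g and Gata3) and 5 below it, with a median of -0.20 against 0.01 over all genes tested. At an unadjusted p under 0.05, Aqp3, Hsd11b2 and Fxyd4 were lower, 3 of 9 against 11.2% of all genes, and 0 of 9 were higher, against 7.52%. In FPKM, every KSPAPN library lay below every Control library for Scnn1a and Hsd11b2, 2 of 9 against 13.5% of all genes, and above for 0 of 9, against 10.8%. With a trend against GC content and length removed from each library, the median of the 9 was -0.10.

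**Figure D1:**
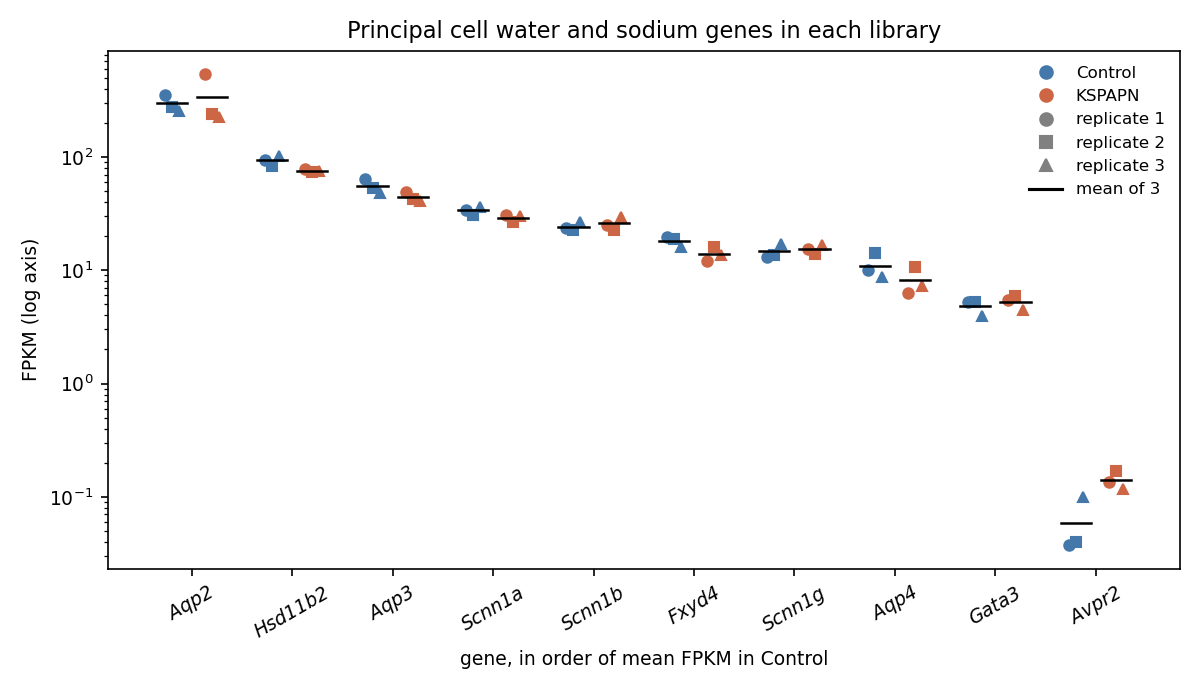
FPKM (log axis) of the 10 genes in each Control library (blue) and KSPAPN library (orange), with marker shapes for replicates 1 to 3 and a line at the mean of 3. Aqp2 led in both groups at 297 and 335 FPKM on average, KSPAPN replicate 1 stood above the other libraries for Aqp2 at 537 FPKM, and Avpr2 lay below 0.2 FPKM in each library.

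Among the water channels, Aqp2 (ENSMUSG00000023013, chromosome 15, 99579055 to 99584547) was the most abundant member, at 297 ± 52.1 FPKM in Control and 335 ± 175 in KSPAPN (SD, n = 3). It was measured at 356, 278 and 257 FPKM in Control replicates 1, 2 and 3 and at 537, 242 and 227 FPKM in KSPAPN replicates 1, 2 and 3. KSPAPN replicate 1 was the highest of the 6 libraries, at 2.29 times the mean of the other KSPAPN libraries, which were the lowest. The log2 fold change was 0.19 ± 0.29 (SE; adjusted p = 0.778, edgeR), and without KSPAPN replicate 1 it was -0.33 (adjusted p = 0.173, edgeR). The coefficient of variation of Aqp2 in KSPAPN was 52.1%, larger than that of 98.3% of the 12248 genes tested that had a mean of at least 1 FPKM, and in Control it was 17.5%, larger than that of 80.5%.

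Among the KSPAPN libraries alone, replicate 1 was the highest in FPKM for Aqp2, Aqp3, Scnn1a and Hsd11b2. It was at 48.8 against 42.2 and 40.8 FPKM for Aqp3 and at 30.6 against 26.7 and 30.2 for Scnn1a. For Hsd11b2 it was at 78.0 against 73.3 and 74.7 FPKM, and for the remaining members it was not the highest. By CPM (counts scaled to a common library total) and over all 6 libraries, Aqp2 was the only one of the 9 tested that was highest in KSPAPN replicate 1. In that library 3203 of the 16017 genes tested had their highest CPM. The share was 32.6% among the 644 genes with a GC content of at least 60%, to which Aqp2 belongs with 63.2%, and 19.5% among those below 60%. With the GC and length trend removed, the fold change of Aqp2 was 0.44 on the log2 scale (adjusted p = 0.262, edgeR). The part of base composition in this library's Aqp2 value was not tested.

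The basolateral water channel Aqp3 (ENSMUSG00000028435, chromosome 4, 41092722 to 41098183) was measured at 64.0, 53.4 and 47.8 FPKM in the Control libraries and at 48.8, 42.2 and 40.8 in the KSPAPN libraries. All KSPAPN values but that of replicate 1 lay below all Control values. Its log2 fold change of -0.32 ± 0.12 had an unadjusted p of 0.0258 and missed the threshold after adjustment (adjusted p = 0.196, edgeR). Without KSPAPN replicate 1 it was -0.39 (adjusted p = 0.0892), and with the GC and length trend removed -0.16. The fit with the replicate number as a block called it (adjusted p = 0.0461, edgeR).

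Aqp4 (ENSMUSG00000024411, chromosome 18, 15389496 to 15410982), the other basolateral channel, was measured at 9.97, 14.1 and 8.63 FPKM in Control and at 6.25, 10.8 and 7.33 FPKM in KSPAPN. The groups overlapped, and replicate 2 was the highest of both. The log2 fold change was -0.42 ± 0.21 (adjusted p = 0.314, edgeR) and -0.25 without KSPAPN replicate 1 (adjusted p = 0.504). With the GC and length trend removed it was further from 0, at -0.55 (adjusted p = 0.138, edgeR). The call depended on the fit, since Aqp4 passed with no filter on low counts (adjusted p = 0.0137) and with the replicate block (adjusted p = 0.0411, edgeR).

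Aqp3 stood in a similar ratio to Aqp2 in 5 of the 6 libraries. The Aqp3/Aqp2 ratio of FPKM was 0.1797, 0.192 and 0.186 in Control and 0.0909, 0.175 and 0.1796 in KSPAPN. KSPAPN replicate 3 lay below Control replicate 1 only in the fourth digit, and replicate 1 alone was far lower. The difference of mean log2 ratios was -0.39 (two-sided exact permutation p = 0.1, the smallest that 20 arrangements of the libraries allow; adjusted p = 0.167 over 5 ratios) and -0.07 without KSPAPN replicate 1. The Aqp4/Aqp2 ratio overlapped between groups, with a difference of -0.50 (exact permutation p = 0.6; adjusted p = 0.75) that became 0.07 without that library.

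The vasopressin receptor gene Avpr2 (ENSMUSG00000031390, chromosome X, 73892102 to 73895502) had 2, 2 and 5 reads in the Control libraries and 9, 9 and 7 reads in the KSPAPN libraries, or 0.0374, 0.0400 and 0.0986 FPKM against 0.134, 0.171 and 0.117. All KSPAPN libraries were higher than all Control libraries (two-sided exact permutation p = 0.1, the smallest possible). Summed over libraries, 25 reads against 9 were 2.52 times as many per total count, with an exact 95% interval of 1.14 to 6.13 that covers counting error only. Of its exonic bases, 81.3% are shared with exons of Arhgap4, which had 99 to 172 reads per library. No source used here says how reads over shared exons were assigned, so the level of Avpr2 is uncertain.

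Among the ENaC subunits, none passed the test after adjustment, and the ratios of Scnn1b and Scnn1g to Scnn1a did not overlap between groups, at the smallest p the design allows. Scnn1a (ENSMUSG00000030340, chromosome 6, 125320659 to 125344943), which encodes the α subunit, was measured at 34.3, 31.0 and 36.1 FPKM in Control and at 30.6, 26.7 and 30.2 FPKM in KSPAPN. All KSPAPN values lay below all Control values, the nearest being 30.6 and 31.0. The log2 fold change was -0.20 ± 0.10 (adjusted p = 0.300, edgeR) and -0.23 without KSPAPN replicate 1 (adjusted p = 0.217). With the GC and length trend removed it was -0.10 (adjusted p = 0.536, edgeR).

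Scnn1b (ENSMUSG00000030873, chromosome 7, 121865038 to 121918514), for the β subunit, was measured at 23.5, 22.7 and 26.8 FPKM in Control and at 25.3, 22.8 and 29.6 FPKM in KSPAPN. Scnn1g (ENSMUSG00000000216, chromosome 7, 121734479 to 121768475), for the γ subunit, was measured at 13.2, 13.7 and 17.0 FPKM in Control and at 15.4, 14.0 and 16.9 FPKM in KSPAPN. For both genes the groups overlapped. The log2 fold changes were 0.10 ± 0.12 for Scnn1b (adjusted p = 0.702) and 0.08 ± 0.12 for Scnn1g (adjusted p = 0.773, edgeR), and 0.13 and 0.09 without KSPAPN replicate 1. With the GC and length trend removed they were 0.22 and 0.14 (adjusted p = 0.346 and 0.586). Without KSPAPN replicate 3 the value of Scnn1b was -0.01. The end of Scnn1g and the start of Scnn1b lie 96.6 kb apart on the same strand.

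A ratio of a pair of genes within a library does not depend on how libraries are scaled. The Scnn1b/Scnn1a ratio of FPKM was 0.685, 0.731 and 0.742 in Control and 0.826, 0.852 and 0.980 in KSPAPN. The Scnn1g/Scnn1a ratio was 0.386, 0.443 and 0.472 in Control and 0.503, 0.524 and 0.559 in KSPAPN. For both ratios all KSPAPN libraries lay above all Control libraries, by 1.23-fold and 1.22-fold (each exact permutation p = 0.1, the smallest possible; adjusted p = 0.167 over 5 ratios). Both have Scnn1a as the denominator, which itself lay below Control in every KSPAPN library, so they are not independent. Among single genes tested, 10.8% lay above Control in every KSPAPN library and 13.5% below. How often other gene pairs separate in this way was not tested. Leaving out each library in turn gave log2 differences of 0.22 to 0.35 for Scnn1b/Scnn1a and 0.21 to 0.35 for Scnn1g/Scnn1a. The Scnn1g/Scnn1b ratio was 0.564, 0.606 and 0.636 in Control and 0.609, 0.615 and 0.570 in KSPAPN, which overlapped (difference of log2 ratios -0.0087, exact permutation p = 1, adjusted p = 1). Scnn1a made up 48.3%, 46.0% and 45.2% of the summed FPKM of the subunits in Control and 42.9%, 42.1% and 39.4% in KSPAPN.

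**Figure D2:**
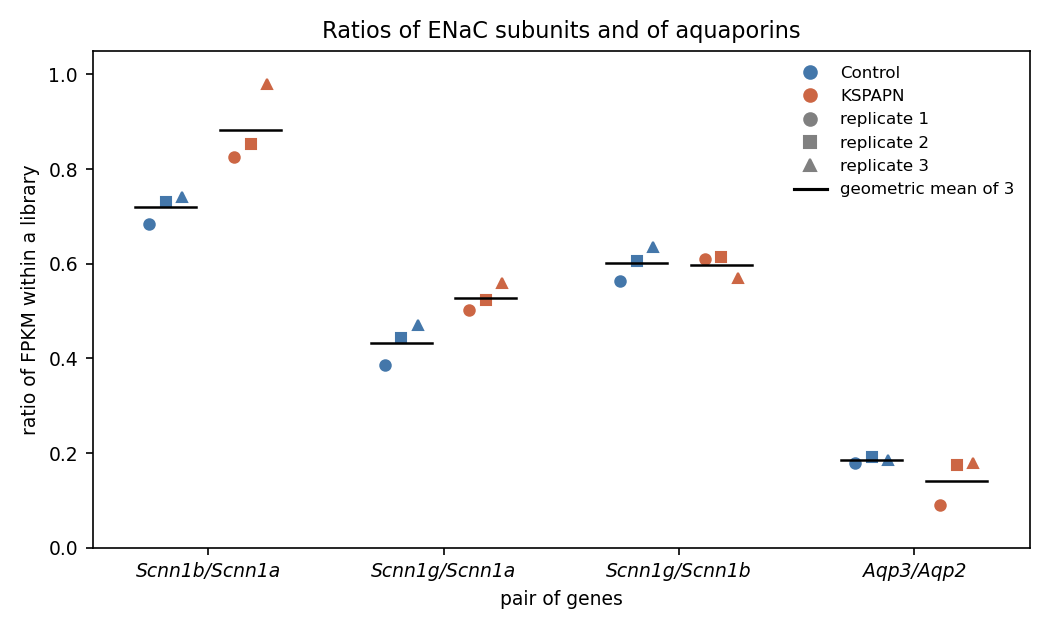
Ratios of FPKM between pairs of genes within each Control (blue) and KSPAPN (orange) library, with marker shapes for replicates and a line at the geometric mean of 3, on an axis that starts at 0. Scnn1b/Scnn1a and Scnn1g/Scnn1a were above Control in all 3 KSPAPN libraries, Scnn1g/Scnn1b overlapped, and the Aqp3/Aqp2 ratio was far from the others in KSPAPN replicate 1 at 0.0909.

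The other principal cell genes were the glucocorticoid-inactivating enzyme, the Na,K-ATPase regulator and the lineage factor. Hsd11b2 (ENSMUSG00000031891, chromosome 8, 105518755 to 105523988) was the second most abundant member, at 94.3, 83.4 and 102 FPKM in Control and 78.0, 73.3 and 74.7 FPKM in KSPAPN. The groups did not overlap, and the KSPAPN libraries lay close together, with a coefficient of variation of 3.19% against 10.2% in Control. The log2 fold change was -0.30 ± 0.10, with an unadjusted p of 0.0110 that missed the threshold after adjustment (adjusted p = 0.133, edgeR), and -0.32 without KSPAPN replicate 1 (adjusted p = 0.104). With the GC and length trend removed it was -0.11 (adjusted p = 0.528, edgeR).

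Fxyd4 (ENSMUSG00000004988, chromosome 6, 117933559 to 117937692) was measured at 19.6, 18.8 and 16.1 FPKM in Control and at 12.1, 16.2 and 13.6 FPKM in KSPAPN. KSPAPN replicate 2 just exceeded the lowest Control library, and the other KSPAPN libraries lay below all of Control. The log2 fold change was -0.38 ± 0.13 (unadjusted p = 0.0141, adjusted p = 0.149, edgeR), -0.27 without KSPAPN replicate 1 and -0.21 with the GC and length trend removed.

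Gata3 (ENSMUSG00000015619, chromosome 2, 9857078 to 9890034) was measured at 5.26, 5.25 and 3.95 FPKM in Control and at 5.47, 5.89 and 4.42 FPKM in KSPAPN. The groups overlapped, with replicate 3 the lowest of both. Its log2 fold change was 0.13 ± 0.16 (adjusted p = 0.710, edgeR) and 0.11 without KSPAPN replicate 1. Exons of other genes (9230102O04Rik and Gm13256) share 5.83% of its exonic bases.

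**Figure D3:**
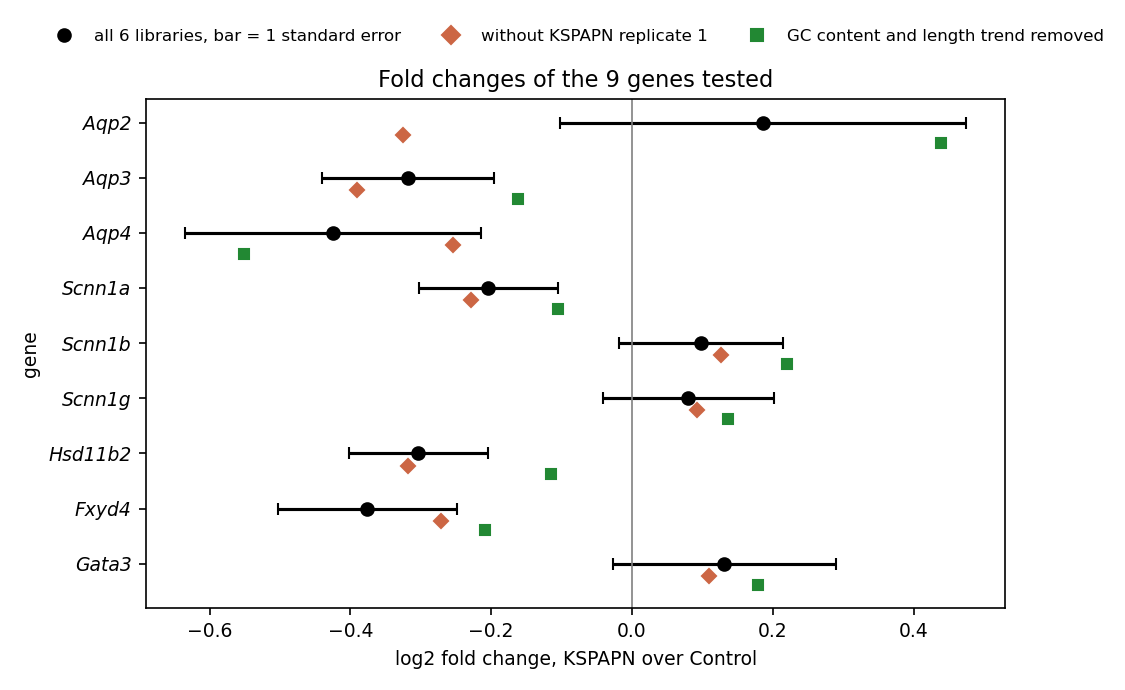
Log2 fold changes of KSPAPN over Control for the 9 genes tested (black, bar of 1 standard error), without KSPAPN replicate 1 (orange diamonds) and with a GC content and length trend removed (green squares). Aqp2 is the gene that crosses 0 when KSPAPN replicate 1 is left out, from 0.19 to -0.33. With the trend removed, the values of Hsd11b2, Fxyd4, Aqp3 and Scnn1a move towards 0. Those of Aqp4, Aqp2, Scnn1b, Scnn1g and Gata3 move away from it.

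The order of the levels in FPKM was Aqp2, Hsd11b2, Aqp3, Scnn1a and Scnn1b in both groups, followed in Control by Fxyd4 and Scnn1g and in KSPAPN by Scnn1g and Fxyd4, then by Aqp4, Gata3 and Avpr2. In Control the ranges of neighbours overlapped for Fxyd4 with Scnn1g and for Scnn1g with Aqp4. In KSPAPN they overlapped for Scnn1a with Scnn1b and for Scnn1g with Fxyd4. The coefficient of variation of Aqp4 was 26.3% in Control and 29.2% in KSPAPN, larger than that of 91.6% and 91.1% of genes, and that of Scnn1a was 7.64% and 7.28%.

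Companion lists were counted whole and their genes named where the unadjusted p was under 0.05. Over all genes tested, 7.52% were higher and 11.2% lower at that unadjusted p, and 2.65% were called after adjustment (edgeR). Of 20 genes of aldosterone and ENaC regulation, 9 had a log2 fold change above 0 and 11 below it (median -0.05), 3 had an unadjusted p under 0.05, all of them lower, and 0 passed after adjustment. The 3 were Tsc22d3, an aldosterone- and glucocorticoid-induced gene, at 12.5 ± 1.69 and 9.66 ± 1.503 FPKM in Control and KSPAPN, and the proteases Prss8, at 181 ± 5.26 and 149 ± 15.8 FPKM, and Furin, at 33.6 ± 2.77 and 26.1 ± 4.53 FPKM, both of which process ENaC (SD, n = 3; adjusted p = 0.170, 0.163 and 0.177, edgeR). For Prss8 the log2 fold change went from -0.27 to -0.10 with the GC and length trend removed.

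The list of vasopressin signalling held 14 genes, the endothelin and prostaglandin genes Edn1, Ednrb, Ptger1, Ptger3 and Ptger4 among them. Of the 14, 11 were above 0 and 3 below (median 0.14). The endothelin receptor gene Ednrb, at 4.15 ± 0.395 FPKM in Control and 5.26 ± 0.787 in KSPAPN, was the 1 gene with an unadjusted p under 0.05, and 0 passed after adjustment (adjusted p = 0.240 for Ednrb, edgeR). In this list 7 of the 14 genes had their highest CPM in KSPAPN replicate 1.

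Of 11 genes of Aqp2 trafficking, 6 were above 0 and 5 below (median 0.08), and 1 was called. Vamp2, a vesicle SNARE protein of membrane fusion, rose by 0.41 ± 0.08 on the log2 scale (adjusted p = 0.0322, edgeR). It was at 24.7, 24.7 and 23.8 FPKM in Control and 33.7, 31.9 and 31.3 FPKM in KSPAPN, higher in 3 of 3 libraries. The fold change stayed at 0.39 to 0.43 on the log2 scale when each library was left out. The call held without KSPAPN replicate 1 (0.39, adjusted p = 0.0299) and was lost without any other library (adjusted p = 0.148, 0.0892 and 0.110 without Control replicates 1, 2 and 3, and 0.0719 and 0.106 without KSPAPN replicates 2 and 3).

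Of 9 genes of medullary tonicity and urea, 7 were above 0 and 2 below (median 0.28). At an unadjusted p under 0.05, 4 were higher, against 7.52% of all genes. After adjustment 1 was called, against 2.65% of all genes. Hspa4l, a heat shock protein of the tonicity response, rose by 0.81 ± 0.16 on the log2 scale (adjusted p = 0.0293, edgeR), with 4.02, 6.50 and 5.83 FPKM in Control and 10.5, 8.79 and 9.18 FPKM in KSPAPN. The call was lost without Control replicate 1 (adjusted p = 0.0793), Control replicate 3 (0.0524) or KSPAPN replicate 3 (0.0912). The log2 fold change was 0.74 without KSPAPN replicate 1 (adjusted p = 0.0325) and 0.64 with the GC and length trend removed (adjusted p = 0.0587). The other 3 genes did not pass after adjustment: Nfat5, the transcription factor of the tonicity response, at 8.02 ± 0.314 and 9.78 ± 0.523 FPKM in Control and KSPAPN, Slc5a3, which takes up myo-inositol, at 19.4 ± 1.82 and 23.4 ± 1.26 FPKM, and the amino acid transporter Slc38a2, at 8.58 ± 1.25 and 12.4 ± 1.57 FPKM (adjusted p = 0.0993, 0.160 and 0.0620, edgeR), though DESeq2 called Slc38a2 (adjusted p = 0.00513). With the GC and length trend removed, the log2 fold change of Nfat5 went from 0.29 to 0.15 and that of Slc5a3 from 0.28 to 0.12. In this list 4 of the 9 genes were highest by CPM in KSPAPN replicate 1, Hspa4l and Slc38a2 among them. The urea transporter gene Slc14a2, chosen after its values were seen, was at 19.7 ± 3.92 and 19.7 ± 3.02 FPKM.

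**Figure D4:**
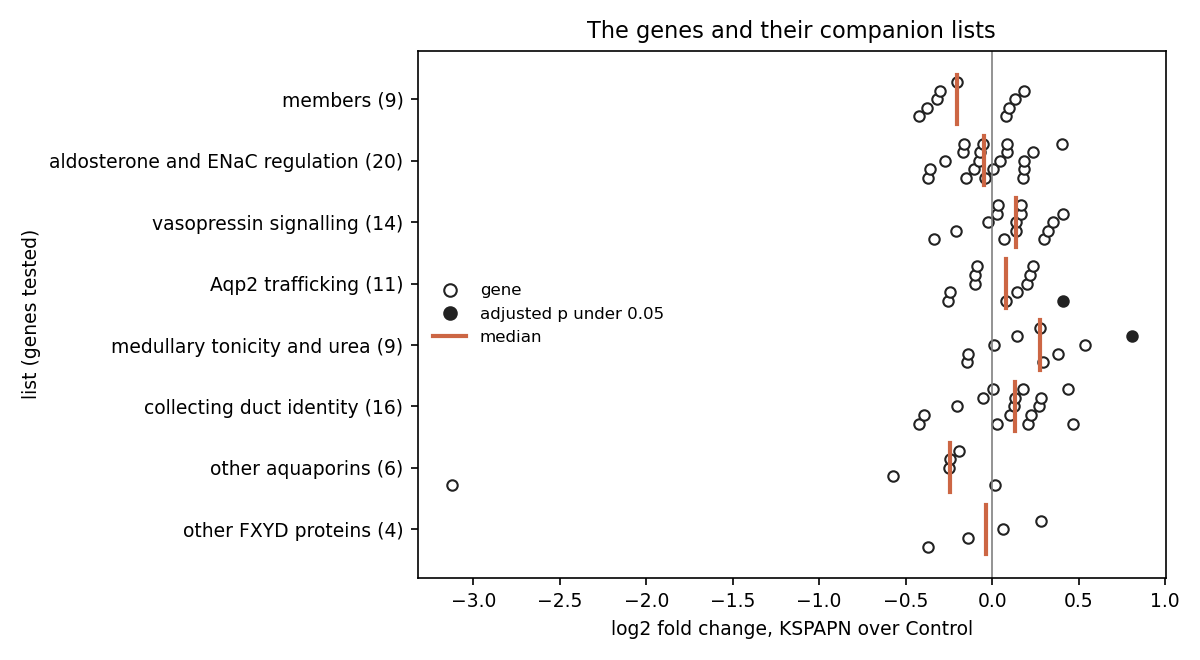
Log2 fold changes of KSPAPN over Control for each gene tested in the 10-gene set and its companion lists, with the number tested in brackets, filled circles for an adjusted p under 0.05 and a bar at each median. The filled circles are Vamp2 at 0.41 and Hspa4l at 0.81, and the point far to the left is Aqp8 at -3.12.

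Of 16 genes of collecting duct identity, 12 were above 0 and 4 below (median 0.13), with an unadjusted p under 0.05 for 3 of those above and 1 of those below, and 0 passed after adjustment. The higher ones were the transcription factors Hoxd10, at 5.69 ± 0.683 and 7.84 ± 0.216 FPKM in Control and KSPAPN, and Ehf, at 6.82 ± 1.03 and 9.24 ± 1.63 FPKM, and the matrix protein gene Npnt, at 41.1 ± 2.91 and 49.9 ± 5.57 FPKM. The lower one was the potassium channel subunit gene Kcne1, at 4.73 ± 0.215 and 3.60 ± 0.866 FPKM (adjusted p = 0.122, 0.133, 0.183 and 0.266, edgeR). In this list 6 of the 16 genes were highest by CPM in KSPAPN replicate 1.

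Of the other aquaporins, 6 of 8 had enough reads to be tested, 1 with a log2 fold change above 0 and 5 below (median -0.24), and 3 were lower at an unadjusted p under 0.05. They were Aqp6, of intercalated cells, at 18.8 ± 0.9503 and 12.7 ± 4.07 FPKM in Control and KSPAPN, Aqp8, at 1.07 ± 0.621 and 0.111 ± 0.163 FPKM, and Aqp11, at 6.26 ± 0.671 and 5.26 ± 0.338 FPKM, and 0 passed after adjustment in edgeR (adjusted p = 0.124, 0.0872 and 0.230). DESeq2 called Aqp6 and Aqp8 (adjusted p = 0.0403 and 0.00514). Aqp9 and Aqp12 were not tested. Of the other FXYD genes, 4 of 6 were tested, 2 above 0 and 2 below (median -0.04), and Fxyd2, the Na,K-ATPase γ subunit, was at 497 ± 41.9 FPKM in Control and 383 ± 25.7 in KSPAPN (adjusted p = 0.107 in edgeR and 0.0138 in DESeq2). Its log2 fold change went from -0.37 to -0.21 with the GC and length trend removed. Fxyd3 and Fxyd7 were not tested.

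Markers of other cell types in the kidney were present in every list, with 0 genes at 0 reads over all libraries. The summed level of 8 proximal tubule markers was 13210 to 15060 CPM (counts scaled to a common library total) in Control and 11970 to 12740 in KSPAPN. It was below Control in all 3 libraries. Of the 8, 7 had a log2 fold change below 0 and 1 above, and 2 passed in edgeR (2.65% of all genes did) and in DESeq2, both lower. They were Slc7a13 (-1.46, adjusted p = 0.0259 in edgeR and 0.00684 in DESeq2) and Slc22a6 (-0.46, adjusted p = 0.0388 in edgeR and 0.000332 in DESeq2). Summed levels overlapped between groups for 6 intercalated cell markers (328 to 354 CPM in Control and 297 to 334 in KSPAPN), 6 distal convoluted and connecting tubule markers (1477 to 1773 and 1161 to 1655) and 5 thick ascending limb markers (4005 to 4569 and 4184 to 5146), of which 0, 0 and 1 gene passed the test in edgeR. The 1 gene was Slc12a1 of the thick ascending limb, higher in KSPAPN (0.52, adjusted p = 0.0437 in edgeR and 0.000258 in DESeq2). DESeq2 also called the intercalated cell genes Slc4a1 (-0.71, adjusted p = 0.00993) and Rhcg (-0.35, adjusted p = 0.0288) and the thick ascending limb gene Cldn10 (-0.41, adjusted p = 0.0291), all 3 lower in KSPAPN, with the log2 fold changes of edgeR in brackets. Summed levels also overlapped for 5 glomerular markers (211 to 328 and 288 to 411 CPM) and 6 urothelial markers (11.4 to 14.6 and 9.15 to 11.8), of which 0 passed in either test. The part of tissue composition in the members' values was not tested.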

How the data were processed

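RNA of whole kidneys was measured as oligo(dT)-selected mRNA on an Illumina NovaSeq instrument. The authors deposited raw read counts per gene and FPKM (counts scaled by gene length and library size) for 6 libraries, with no statement of the library total behind the FPKM. The submitters' processing notes name STAR 2.5, TopHat, HTSeq 0.6.1, DESeq2 and edgeR without their roles. The genome build, annotation and strand setting were not given in the sources used here. In the labels, the extraction text speaks of liver, whereas the tissue is given as kidney.

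Columns were assigned by group and replicate in their names, and 54495 of 54532 identifiers matched GENCODE M21 (GRCm38). Counts were tested with edgeR 4.0.16 (R 4.3.3; TMM, minimum count 10, minimum total 15, quasi-likelihood, two-sided, Benjamini-Hochberg over 16017 genes; common dispersion 0.0225), after a test of the script on simulated data. Changes were computed across all genes, and ratios of FPKM were tested by exact permutation of the 20 arrangements of libraries. A figure legend of the study gives 3 mice per pool and 9 mice for 3 libraries, which was taken here as per group. The p-values measure only the spread between libraries. Counts have no molecular identifiers, so intervals from reads cover counting error only, with 17183358 to 20871173 counts per library.

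The members and lists were chosen with earlier results of these data known. All members are named, and list genes at an unadjusted p under 0.05, at most 6 per list. Alternatives were DESeq2 1.42.0, limma 3.58.1 on log2 FPKM, other scalings and filters, offsets against GC content and length, a replicate block and leaving out each library.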

Additional observations from a re-analysis of the deposited data

How the results depend on the processing

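Of the 144 values of the 9 members under 16 alternatives, 138 kept their direction and their side of the threshold, 4 passed it only in an alternative and 2 changed sign. Members called were 1 with no filter on low counts (Aqp4), 2 with the replicate block (Aqp3 and Aqp4) and 1 with the GC and length correction plus the replicate block (Aqp4), against 0 otherwise. Genes called overall were 424, and 266 with total counts only, 1339 with no filter, 924 with DESeq2, 1 and 10 with limma on log2(FPKM + 1) and log2(FPKM + 0.1), 929 with the replicate block, 678 with the GC correction and block, and 39 to 733 when each library was left out, the highest without KSPAPN replicate 1 and the lowest without Control replicate 1. The causes were not tested.

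Leaving out each library gave log2 fold changes of -0.33 to 0.40 for Aqp2 and -0.0070 to 0.19 for Scnn1b, and differences of log2 ratios of -0.905 to 0.0651 for Aqp4/Aqp2 and -0.0553 to 0.0318 for Scnn1g/Scnn1b. Scaling by total counts only moved the median of all genes from 0.01 to 0.08 and the share higher among genes at an unadjusted p under 0.05 from 40.2% to 62.7% (50.2% with the GC and length correction).

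Same-numbered Control and KSPAPN libraries correlated in their deviations with r = 0.05, 0.15 and 0.17 for replicates 1, 2 and 3, not all over 0.1. No source used here says whether they were paired, and these correlations cannot decide it. Each library correlated best with its own number, a hint from the data and not from the design. The replicate block gave Aqp3 an adjusted p of 0.0461 and Aqp4 0.0411 (edgeR) and kept the other 7 members uncalled. Vamp2 and Hspa4l also lost their calls with limma on log2(FPKM + 1) (adjusted p = 0.121 and 0.212) and on log2(FPKM + 0.1) (0.102 and 0.179). Avpr2 had 9 reads in Control and 25 in KSPAPN, too few for the filter on low counts, and its shared exons leave its level uncertain.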
